A study of Homo sapiens with 12 samples.

Results

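The data describe what MI-3454 changed in MOLM-13 cells that were also given gilteritinib. MI-3454 is a small molecule that keeps menin from binding MLL1, and gilteritinib inhibits the kinase of the receptor FLT3. The 3 libraries titled with both agents (combination) were set against the 3 titled with gilteritinib alone, which together are 6 of the 12 libraries in the series. The other 6 libraries, 3 with MI-3454 alone and 3 with DMSO (the solvent), served to show the effect of MI-3454 where FLT3 was not inhibited. MOLM-13 is an established human line of acute myeloid leukaemia with the MLL-AF9 fusion beside FLT3-ITD, an internal tandem duplication in the receptor, so that all groups carry both lesions. Treatment lasted 8 days in every group, cultures were seeded in triplicate, and total RNA was sequenced after ribosomal RNA was removed. The sources used here give no doses. For replicates 2 and 3 of both groups with MI-3454, the treatment label carries trailing numbers that differ between replicates, and the groups follow the titles. The results hold for 1 cell line, and the p-values measure the spread between cultures of that line.

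Menin is an adaptor that holds MLL1 and MLL fusion proteins on chromatin, where they keep genes such as the HOXA cluster and MEIS1 transcribed in leukaemia cells and hold back myeloid maturation. FLT3 with an internal tandem duplication signals without its ligand through STAT5, the RAS-MAPK cascade and PI3K-AKT. In leukaemias with both lesions, FLT3 is itself a gene downstream of HOXA9 and MEIS1, which links the menin pathway to the kinase that gilteritinib inhibits.

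Gene counts per library came to 6.47 to 11.3 M with the combination and 9.03 to 12.1 M with gilteritinib. All 8 defining markers of the line were measured, among them the pan-leukocyte gene PTPRC, the myeloid surface gene CD33 and the myeloid transcription factor gene CEBPA. Together they reached 2246 to 2670 CPM (counts scaled to library size) with the combination and 2596 to 2650 CPM with gilteritinib. The sums hide changes of members: in the test described below, 4 of the 8 were higher and 1, FLT3, was lower with the combination. None of 5 B cell markers passed the filter on low counts. Among 8 T and NK cell markers, 3 did, with a summed level of 68.9 to 96.5 CPM with the combination and 45.6 to 55.8 CPM with gilteritinib, and CD2 was at 0 counts in both groups. Markers of erythroid cells and megakaryocytes summed to 0.601 to 1.23 CPM with the combination and 1.45 to 1.88 CPM with gilteritinib, with HBB and ALAS2 at 0. The first principal component of the 6 libraries held 84.7% of the variance and separated the groups. Gilteritinib 2 stood apart on the second, which held 5.67%.

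The libraries also differed in composition, in ways that move with the groups. Uniquely placed reads that overlapped no annotated exon, which includes introns, were 28.5%, 32.7% and 36.5% of that class in the combination libraries, against 17.8%, 15.6% and 17.6% in the gilteritinib libraries. The groups did not overlap (exact permutation test, two-sided, p = 0.1, and no lower p is possible with 3 libraries a group). Without gilteritinib the means were 21.0% ± 4.13 with MI-3454 and 18.1% ± 2.03 with DMSO (SD, n = 3 each; exact permutation p = 0.3). Mitochondrially encoded genes took 0.844%, 0.812% and 0.976% of gene counts with the combination, against 1.12%, 2.84% and 1.13% with gilteritinib, where the high value is gilteritinib 2. Reads without a unique placement averaged 18.5% ± 1.32 of all reads with the combination and 27.2% ± 1.03 with gilteritinib. The noncoding RNA gene RN7SL1 took 1.39% ± 0.249 of gene counts with the combination and 2.50% ± 0.342 with gilteritinib (SD, n = 3 each). Neither measure overlapped between the groups (exact permutation p = 0.1 for each). Among protein-coding genes, the share that rose went with the length of the gene: 17.3% of the shortest quartile rose and 45.1% fell, whereas 34.1% of the longest quartile rose and 26.0% fell. For MI-3454 against DMSO the corresponding shares were 9.16% and 9.47% in the shortest quartile, and 13.5% and 10.3% in the longest one. Of lincRNA genes 50.7% rose and 9.07% fell with the combination. The part of this composition in the results that follow was not tested.

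**Figure D1:**
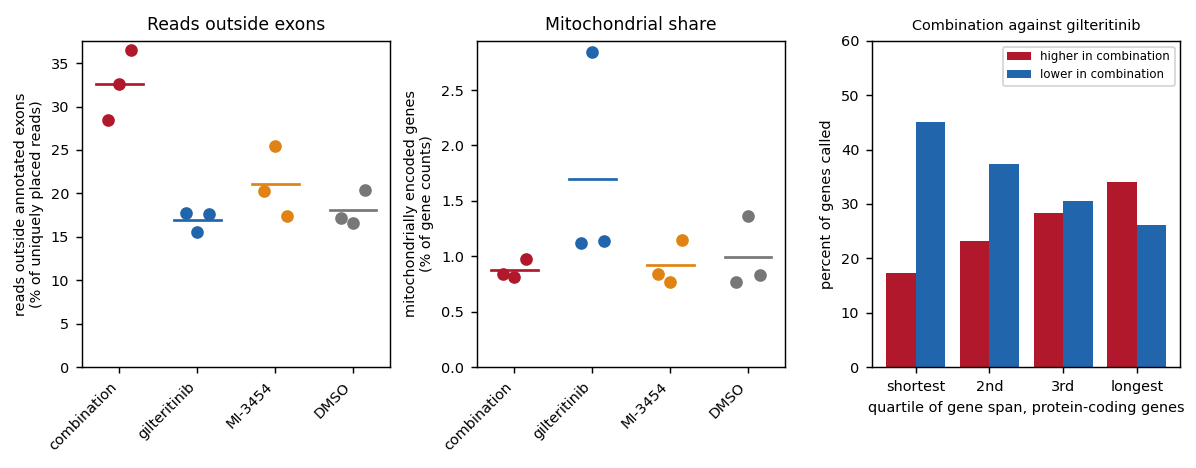
Reads outside annotated exons as a percentage of uniquely placed reads (left) and mitochondrially encoded genes as a percentage of gene counts (middle), with a point per library and a line at the group mean, and the percentage of protein-coding genes called higher or lower in the combination against gilteritinib by quartile of gene span (right). The combination libraries lie at 28.5% to 36.5% of reads outside exons, gilteritinib 2 stands out at 2.84% mitochondrial counts, and the share called higher is 17.3% in the shortest and 34.1% in the longest quartile.

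Adding MI-3454 to gilteritinib changed the expression of most genes. Of 13972 genes tested, 8439 (60.4%) were called changed, that is, had an adjusted p (Benjamini-Hochberg, edgeR quasi-likelihood) below 0.05. They split into 4210 higher (30.1%) and 4229 lower (30.3%), of which 1797 rose (12.9%) and 1046 fell (7.49%) at least 2-fold. Every combination library lay above every gilteritinib library in CPM for 4279 genes (30.6%) and below for 4952 (35.4%). With library totals in place of TMM factors, the median log2 change of all genes moved by 0.125 and the split became 5010 higher and 3140 lower, so the balance of the directions depends on the scaling. Each list of genes below is therefore read against these shares and against the median log2 change of all genes, 0.0034. In bulk RNA, fewer cells of a type and less RNA per cell cannot be told apart.

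**Figure D2:**
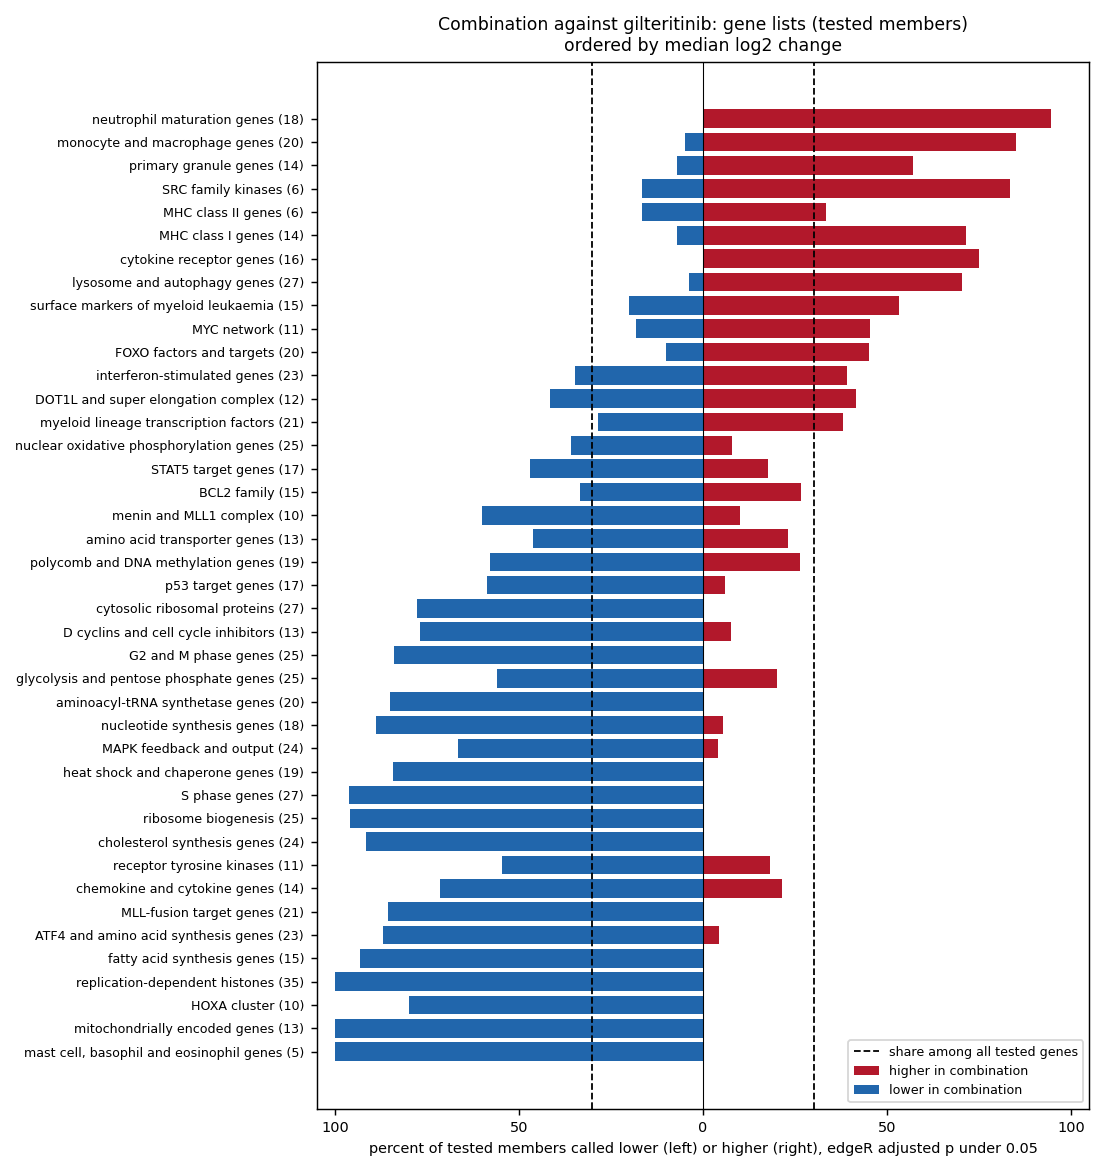
Percentage of the tested members of each gene list called lower (blue, left) or higher (red, right) in the combination against gilteritinib, ordered by median log2 change, with the number of tested members in brackets and dashed lines at the shares of all tested genes, 30.3% lower and 30.1% higher. Neutrophil and monocyte genes are at the top, and genes of mast cells, basophils and eosinophils are at the bottom with 5 of 5 lower.

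Known targets of MLL fusion proteins were lower with the combination than with gilteritinib. In the HOXA cluster, which encodes homeodomain factors of haematopoietic progenitors, 8 of 10 tested members fell and none rose, with a median log2 change of -1.43. Of 21 other MLL-fusion target genes, 18 fell and none rose, with a median of -1.27. Both shares, 80.0% and 85.7%, lie above the 30.3% of all genes that fell and the 45.1% of the shortest quartile of protein-coding genes. MEIS1 (ENSG00000143995.20, GRCh38 chromosome 2, 66433452 to 66573869), the HOX cofactor of leukaemic self-renewal, measured 4.55, 6.61 and 3.83 CPM in the combination libraries, against 93.1, 94.9 and 90.9 CPM in the gilteritinib libraries. The groups lay far apart, with a log2 change of -4.15 ± 0.13 (SE; edgeR adjusted p = 8.62e-12). MEF2C, a transcription factor gene of the same program, measured 18.2, 19.9 and 21.3 CPM with the combination, against 311, 291 and 285 CPM with gilteritinib, a log2 change of -3.86 ± 0.09. SOCS2, which encodes a feedback inhibitor of cytokine signalling, had the largest fall of the list at -5.14 ± 0.12, with 2.83, 3.61 and 3.96 CPM with the combination against 132, 117 and 122 CPM with gilteritinib. ZNF521 (-2.87) and PBX3 (-1.96), a further HOX cofactor, also fell.

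HOXA9 and HOXA10 were the called members of the cluster that fell least. HOXA9 measured 29.3, 31.1 and 26.1 CPM with the combination, against 57.4, 53.7 and 60.3 CPM with gilteritinib, a log2 change of -0.94 ± 0.09 (edgeR adjusted p = 9.43e-07). HOXA5 fell by 2.61 ± 0.23, HOXA3 by 2.16 ± 0.24 and HOXA7 by 1.95 ± 0.17 on the log2 scale, at levels of 1.62 to 3.95 CPM with the combination. HOXA13, at the end of the cluster, was not called, with a log2 change of -0.27. FLT3 itself fell in all 3 combination libraries, to 191, 187 and 181 CPM, against 565, 473 and 527 CPM with gilteritinib. Its log2 change of -1.44 ± 0.09 (edgeR adjusted p = 8.79e-09) stands beside -1.61 ± 0.14 for MI-3454 against DMSO, and the difference between these effects, 0.17 ± 0.15, did not pass the test (edgeR interaction adjusted p = 0.49).

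Genes of the complex that MI-3454 acts on were lower more often than higher, with a median log2 change of -0.33. MEN1, which encodes menin, measured 39.5, 36.4 and 33.9 CPM with the combination, against 55.4, 56.7 and 48.4 CPM with gilteritinib, a log2 change of -0.50 ± 0.09 (edgeR adjusted p = 0.000317). KMT2A, the gene of MLL1, rose by 0.62 ± 0.08 on the log2 scale. In all, 1 of 10 genes of the menin and MLL1 complex rose and 6 fell, but with library totals as the scaling only 3 fell and 2 rose. DOT1L, the H3K79 methyltransferase that MLL fusions recruit, fell by 0.75 ± 0.10. Of 12 genes of DOT1L and the super elongation complex, 5 rose and 5 fell (41.7% each way, against 30.1% and 30.3% of all genes). The number that rose there lay between 1 and 5 over the other settings, the lowest without a filter on low counts, 2 without combination 2 and 3 without gilteritinib 1 or 3.

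**Figure D3:**
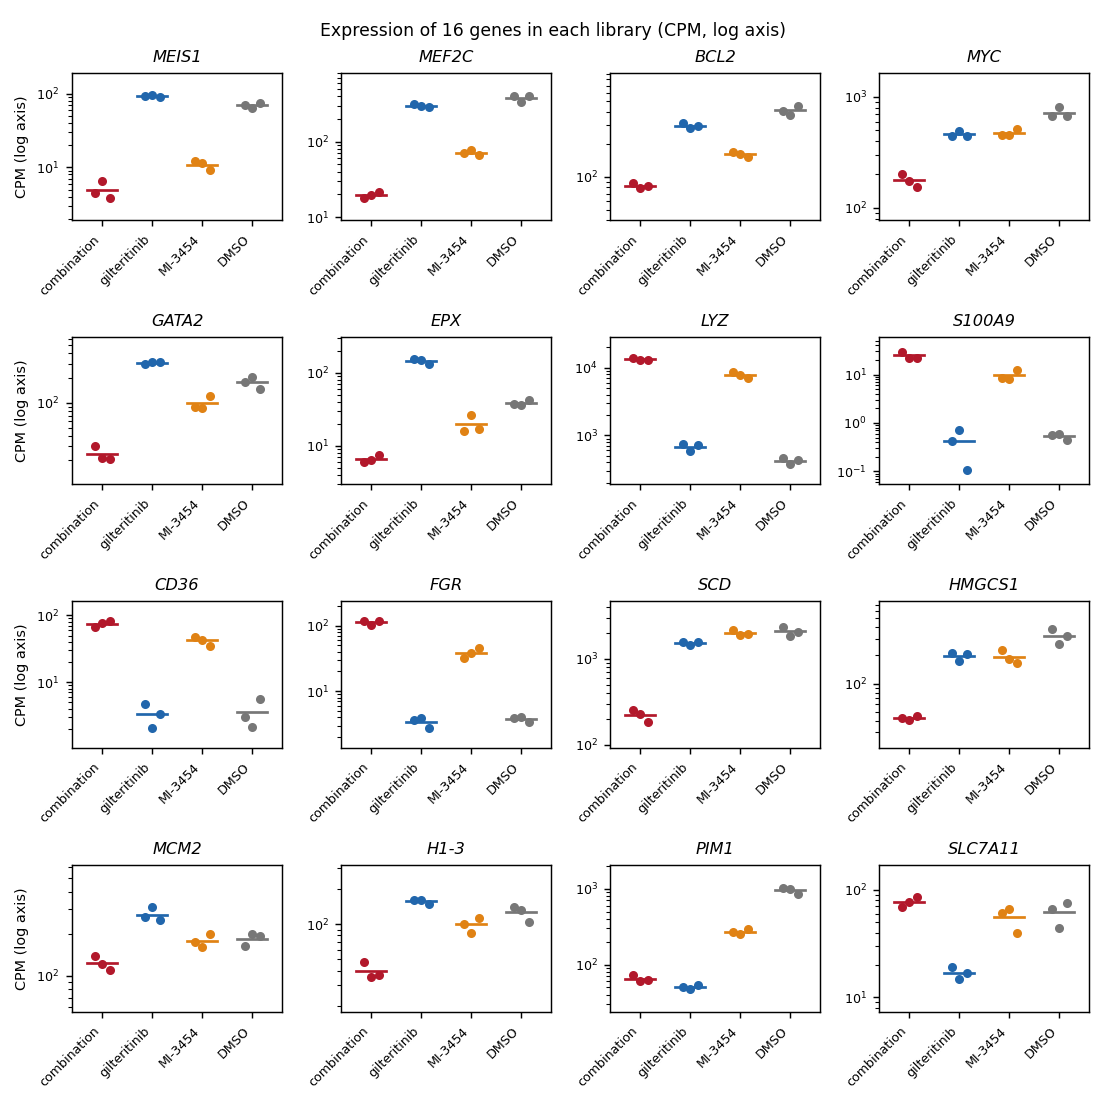
CPM on a log axis of 16 genes in each of the 12 libraries, grouped as combination, gilteritinib, MI-3454 and DMSO, with a point per library and a line at the group mean. MEIS1, MEF2C and BCL2 are lowest with the combination, LYZ, S100A9, CD36 and FGR are highest there, SCD and HMGCS1 are low with the combination and not with MI-3454 alone, and PIM1 is low in both groups with gilteritinib.

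Genes of the signalling that FLT3 feeds did not move as a block. Of 17 STAT5 target genes, 3 rose and 8 fell, with a median log2 change of -0.13. The share that fell, 47.1%, was near the 45.1% of the shortest quartile of protein-coding genes. PIM1, a serine/threonine kinase gene and a direct STAT5 target, measured 73.2, 60.6 and 62.0 CPM with the combination, against 50.3, 47.3 and 53.7 CPM with gilteritinib. Both groups lay below the MI-3454 cells (272 ± 21.5 CPM) and the DMSO cells (954 ± 100.9 CPM; SD, n = 3 each). The effect of MI-3454 on PIM1 thus had opposite signs, 0.42 ± 0.09 in the presence of gilteritinib and -1.76 ± 0.13 in its absence, and the difference of 2.17 ± 0.16 passed the test (edgeR interaction adjusted p = 3.00e-07). PIM2 fell by 1.44 ± 0.09 with no called change under MI-3454 alone (-0.23 ± 0.12), and CCND2, a D cyclin gene, fell by 1.60 ± 0.09.

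Of 24 genes of MAPK output and feedback, 1 rose and 16 fell, with a median log2 change of -0.63; with library totals as the scaling, 5 rose and 14 fell. The immediate-early transcription factor genes were among those that fell. EGR3 had 0.258, 0.516 and 0.137 CPM with the combination, against 12.3, 12.9 and 12.9 CPM with gilteritinib. EGR1 measured 11.4, 11.6 and 9.16 CPM with the combination, against 33.3, 60.3 and 28.2 CPM with gilteritinib, where gilteritinib 2 was high. CCND1, the cyclin D1 gene, had 3 counts in the combination libraries together and 218 in the gilteritinib libraries, a level 71.4-fold lower with the combination (exact 95% counting interval 24.1 to 349). The feedback phosphatase gene DUSP6 was not called (log2 change 0.22 ± 0.10, edgeR adjusted p = 0.0767).

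Among receptor tyrosine kinase genes, 2 of 11 rose and 6 fell. AXL, which encodes a receptor known for resistance to FLT3 inhibitors, measured 0.945, 1.14 and 0.273 CPM with the combination, against 26.5, 28.2 and 32.2 CPM with gilteritinib, a log2 change of -5.05 ± 0.23 (edgeR adjusted p = 3.78e-10). Its fall was larger than with MI-3454 alone by 2.79 ± 0.44 log2 units (edgeR interaction adjusted p = 0.000645). CSF1R, the receptor of monocyte growth factor, rose by 1.12 and IGF1R by 0.93 on the log2 scale. In the family of SRC kinases, which act downstream of such receptors, 5 of 6 genes rose. FGR, a member of myeloid cells, measured 116, 102 and 118 CPM with the combination, against 3.68, 3.85 and 2.73 CPM with gilteritinib. YES1 fell by 1.48 ± 0.12.

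Among genes of apoptosis, 4 of 15 BCL2 family members rose (26.7%) and 5 fell (33.3%), near the 30.1% and 30.3% of all genes. BCL2, the antiapoptotic gene that venetoclax is directed at, measured 87.2, 79.6 and 82.9 CPM with the combination, against 313, 282 and 294 CPM with gilteritinib, a log2 change of -1.79 ± 0.08 (edgeR adjusted p = 3.33e-10). MCL1 fell by 0.46, and BCL2L1 was not called (0.05). BCL2L11, which encodes the proapoptotic protein BIM, measured 77.4, 70.2 and 76.0 CPM with the combination, against 42.3, 36.1 and 39.2 CPM with gilteritinib. It rose by 0.97 ± 0.08 here but fell by 0.66 ± 0.12 with MI-3454 against DMSO, and the difference of 1.62 ± 0.14 passed the test (edgeR interaction adjusted p = 1.99e-06). BCL2A1, an antiapoptotic gene of mature myeloid cells, rose by 0.88 ± 0.23 and BBC3, a p53 target gene, fell by 0.62 ± 0.12.

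MYC and genes of ribosome production fell together. MYC measured 203, 175 and 155 CPM with the combination, against 447, 496 and 445 CPM with gilteritinib, a log2 change of -1.34 ± 0.11 (edgeR adjusted p = 1.13e-07). In its network of partner genes, MYCL (0.95), MLXIP (0.63), MXI1 (0.47) and MXD1 (0.42) rose, so that 5 of 11 rose and 2 fell, while 8 rose without the library highest in RN7SL1 of each group. Of 25 ribosome biogenesis genes, 24 fell and none rose, with a median log2 change of -0.80. BOP1, a factor of large subunit assembly, measured 148, 130 and 110 CPM with the combination, against 321, 371 and 296 CPM with gilteritinib. PES1, its partner in the same complex, fell by 1.11 ± 0.11 and RRP9, a protein of the U3 small nucleolar particle, by 0.97 ± 0.14. Of 27 cytosolic ribosomal protein genes, which have many near-identical copies, 21 fell and none rose, with a median of -0.40. The number that fell was 14 without combination 2, 18 with library totals and 26 without the libraries highest in RN7SL1. RPL11, RPLP1 and RPL38 lost their call with DESeq2.

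The E-box CACGTG, the DNA word that MYC and its partners recognise, was looked up on both strands in promoters of 300 bases, from 250 before to 50 after the annotated start (RefSeq, GRCh38.p14). Promoters were found for 20 of the 25 ribosome biogenesis genes, and 6 of them (30.0%) held the word, against 10.4% of 9973 promoters of tested genes. NOP2, the 1 member of the list not called lower (log2 change 0.58, edgeR adjusted p = 0.165), also held the word. RRP9 and PES1 are shown as members that fell with the word close to the start, which the capitals mark. A match is a run of letters and not a measured site.
RRP9, chr3:51941855-51942154, minus strand: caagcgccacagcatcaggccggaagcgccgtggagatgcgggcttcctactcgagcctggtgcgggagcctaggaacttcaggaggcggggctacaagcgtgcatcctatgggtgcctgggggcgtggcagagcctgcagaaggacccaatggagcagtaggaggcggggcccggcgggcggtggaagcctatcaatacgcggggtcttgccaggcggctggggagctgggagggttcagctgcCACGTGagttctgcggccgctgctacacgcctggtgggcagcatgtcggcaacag
PES1, chr22:30591861-30592160, minus strand: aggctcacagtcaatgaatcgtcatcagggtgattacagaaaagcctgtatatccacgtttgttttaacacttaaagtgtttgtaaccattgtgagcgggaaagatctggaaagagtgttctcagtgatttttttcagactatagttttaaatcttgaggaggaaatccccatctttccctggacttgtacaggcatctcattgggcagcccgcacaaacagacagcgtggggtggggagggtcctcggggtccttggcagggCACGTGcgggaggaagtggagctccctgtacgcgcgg

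Genes of the cell cycle fell with the combination. Of 27 S phase genes 26 fell and none rose, with a median log2 change of -0.75, and of 25 G2 and M phase genes 21 fell and none rose, with a median of -0.49. MCM2, a subunit of the replicative helicase, measured 140, 123 and 111 CPM with the combination, against 262, 310 and 250 CPM with gilteritinib, a log2 change of -1.09 ± 0.11 (edgeR adjusted p = 9.12e-07). With MI-3454 alone the change was -0.00067 ± 0.13, and the difference of -1.10 ± 0.17 passed the test (edgeR interaction adjusted p = 0.000548). CDT1, the replication licensing factor, fell by 1.21 ± 0.12 and CDC6, its partner at origins, by 1.09 ± 0.10. CCNB1, the mitotic cyclin, measured 55.8, 47.8 and 48.5 CPM with the combination, against 90.6, 86.3 and 89.7 CPM with gilteritinib. The proliferation marker MKI67 measured 529, 463 and 471 CPM with the combination and 577, 614 and 516 CPM with gilteritinib, where the groups overlapped and the log2 change of -0.18 ± 0.10 was not called (edgeR adjusted p = 0.125).

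All 35 tested replication-dependent histone genes fell, with a median log2 change of -1.40. These genes, which are expressed in S phase, give messages without a poly(A) tail and are kept in libraries made by ribosomal RNA removal. H1-3, a linker histone, measured 47.8, 35.4 and 37.0 CPM with the combination, against 161, 160 and 149 CPM with gilteritinib, a log2 change of -1.91 ± 0.10 (edgeR adjusted p = 1.82e-09). H3C12 had 63.1, 45.1 and 44.1 CPM with the combination, against 157, 341 and 145 CPM with gilteritinib, where the highest value is gilteritinib 2. With MI-3454 against DMSO none of the 35 passed the test, and the median was -0.03, although 6 were called lower without MI-3454 replicate 3 and 1 without the libraries highest in RN7SL1. The difference between the effects was called for 25 of them, all lower with gilteritinib present. It was also called lower for 22 of 27 S phase genes and 21 of 25 G2 and M phase genes, against 8.74% of all genes tested. Over the other settings these counts ran from 9 to 35, from 16 to 22 and from 13 to 24. The histone count was 9 without combination 3, 12 without combination 2, 11 without gilteritinib 2, 16 without DMSO 1 and 14 without DMSO 3. The histone genes are short, with a median span of 0.645 kb against 31.6 kb for all protein-coding genes tested, and they share near-identical copies.

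**Figure D4:**
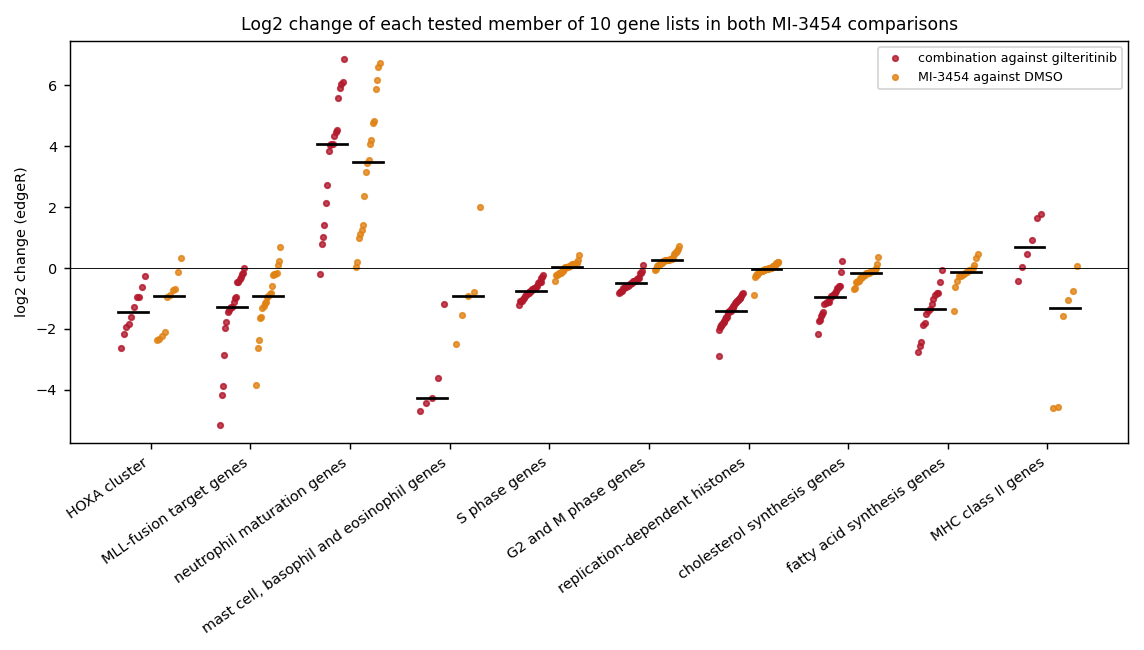
Log2 change of every tested member of 10 gene lists for the combination against gilteritinib (red) and for MI-3454 against DMSO (orange), with a black line at each median. HOXA, MLL-fusion target and neutrophil genes move the same way in both comparisons, whereas the medians of S phase genes are -0.75 with gilteritinib and 0.03 without it, and those of histone genes -1.40 and -0.03.

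Cyclin and inhibitor genes that act before S phase also fell: 10 of 13 were lower and 1 was higher. CDK6, a kinase of the D cyclins and a known MLL-fusion target, measured 303, 321 and 312 CPM with the combination, against 826, 714 and 782 CPM with gilteritinib. The inhibitor genes CDKN1A (-1.02 ± 0.09) and CDKN2C (-0.94 ± 0.08) fell as well, and RBL2, a pocket protein gene of quiescence, rose by 0.52. Of 17 p53 target genes, 10 fell and 1 rose, with a median log2 change of -0.40. PHLDA3 fell by 1.34 ± 0.16, FAS, the death receptor, rose by 0.97 ± 0.17, and MDM2 was not called (-0.11). The number that rose was 3 with library totals, with the replicate block, without combination 1 or gilteritinib 1, and without the libraries highest in RN7SL1, and 2 without gilteritinib 3.

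Most tested genes of mature monocytes and neutrophils rose. Of 18 neutrophil maturation genes 17 rose and none fell, with a median log2 change of 4.07, and of 20 monocyte and macrophage genes 17 rose and 1 fell, with a median of 2.56. Without combination 1, without gilteritinib 1 or with no filter, 1 neutrophil gene was called lower. A further 6 members of each list did not pass the filter on low counts, and they did not all point the same way. MSR1 had 1 count with the combination and 30 with gilteritinib, and CD68 had 16 and 8. LTF had 1 and 3 counts, CAMP had 15 and 6, and CEACAM8 and CD163 had 0 in both groups. FPR2 had 25 counts with the combination and 0 with gilteritinib, and CD14 had 410 and 1. FCN1 had 137 and 2 counts, PADI4 had 210 and 3, and CLEC7A had 67 and 3. These genes could pass the filter only through groups other than gilteritinib, as could S100A8 and S100A9 at the levels given below. The counts and medians of both lists thus partly follow from the filter. LYZ (ENSG00000090382.6, chromosome 12, 69348341 to 69354234), the lysozyme gene, measured 14053, 12760 and 12741 CPM with the combination, against 757, 580 and 716 CPM with gilteritinib, a log2 change of 4.31 ± 0.13 (edgeR adjusted p = 4.76e-12). Calprotectin is encoded by S100A8 and S100A9. S100A8 measured 23.6, 24.5 and 26.2 CPM with the combination, against 0.257, 0.361 and 0 CPM with gilteritinib. S100A9 measured 29.7, 22.3 and 22.5 CPM with the combination, against 0.428, 0.723 and 0.109 CPM with gilteritinib. The rise of S100A8 was larger with gilteritinib than without it by 3.43 ± 0.52 log2 units (edgeR interaction adjusted p = 0.000458), whereas for S100A9 the difference of 1.72 ± 0.62 did not pass the test.

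CD14, the monocyte coreceptor for lipopolysaccharide, had 410 counts in the combination libraries and 1 in the gilteritinib libraries, a ratio of 417 (exact 95% counting interval 74.5 to 16524). Its level of 14.1 ± 1.66 CPM with the combination stood beside 12.6 ± 1.47 CPM with MI-3454 alone (SD, n = 3 each). CD36, a scavenger receptor, measured 67.7, 76.7 and 82.3 CPM with the combination, against 4.62, 2.05 and 3.27 CPM with gilteritinib. CYBB, the catalytic subunit of the phagocyte oxidase, reached 395, 389 and 398 CPM with the combination, against 34.8, 22.3 and 31.2 CPM with gilteritinib. PADI4, which citrullinates histones in neutrophils, had 210 counts with the combination and 3 with gilteritinib, a ratio of 71.3 (interval 24.0 to 348). ITGAM, the integrin CD11b that is widely used to score differentiation, rose by 0.41 ± 0.08, to 91.4 ± 3.13 CPM with the combination, against 71.1 ± 3.02 CPM with gilteritinib. FCGR1A fell by 0.46.

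Primary granule genes, which are expressed earlier in the myeloid series, were more divided: 8 of 14 rose and 1 fell, with a median log2 change of 0.84. MPO, the granule peroxidase, measured 315, 263 and 255 CPM with the combination, against 59.5, 57.0 and 59.8 CPM with gilteritinib. With MI-3454 alone it reached 603 ± 71.5 CPM, against 34.2 ± 2.04 CPM with DMSO (SD, n = 3 each), so that its log2 change of 2.28 ± 0.09 with gilteritinib was smaller than 4.19 ± 0.15 without it (edgeR interaction adjusted p = 9.05e-07). The proteinase genes ELANE, PRTN3 and AZU1 were not called (log2 changes of 0.17, 0.11 and -0.08), at levels of 2297 CPM or more in every library of both groups. CST7, a cystatin gene, fell by 1.56 ± 0.15. In total, 8 of the 14 had an effect of MI-3454 that was called lower in the presence of gilteritinib, and none had one called higher. Of all genes tested, 8.74% had an effect called lower and 6.55% one called higher.

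Among genes of mast cells, basophils and eosinophils, all 5 that were tested fell, with a median log2 change of -4.27. The remaining 7 of the 12, among them CPA3 and HDC, did not pass the filter on low counts. They did not all point the same way: MS4A2 had 14 counts with the combination and 0 with gilteritinib, CLC had 19 counts with the combination and 4 with gilteritinib, and 2 members were called higher when no filter was applied. GATA2, a transcription factor of progenitors and of these lineages, measured 30.1, 21.4 and 20.5 CPM with the combination, against 293, 314 and 313 CPM with gilteritinib, a log2 change of -3.62 ± 0.13 (edgeR adjusted p = 2.15e-11). EPX, the eosinophil peroxidase, measured 5.92, 6.30 and 7.38 CPM with the combination, against 155, 148 and 132 CPM with gilteritinib. Both genes were higher with gilteritinib than with DMSO (306 ± 11.8 against 177 ± 27.7 CPM for GATA2 and 145 ± 11.5 against 38.8 ± 3.77 CPM for EPX; SD, n = 3 each). MI-3454 alone lowered GATA2 by 0.79 ± 0.16 and EPX by 0.93 ± 0.19, and the differences of -2.83 ± 0.22 and -3.52 ± 0.23 between the effects passed the test (edgeR interaction adjusted p = 7.49e-07 and 1.78e-07). The tryptase genes TPSB2 (-4.70 ± 0.23) and TPSAB1 (-4.27 ± 0.37) fell too, although reads cannot be split safely between these near-identical genes.

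Of 21 transcription factor genes of the myeloid lineage, 8 were higher (38.1%) and 6 lower (28.6%), near the 30.1% and 30.3% of all genes. KLF4, a factor of monocyte differentiation, measured 30.7, 25.3 and 25.1 CPM with the combination, against 5.90, 4.09 and 5.89 CPM with gilteritinib, a log2 change of 2.39 ± 0.15 (edgeR adjusted p = 1.00e-08). CEBPD (1.47 ± 0.10), BCL6 (1.13 ± 0.15), CEBPB (1.10 ± 0.09), and NFE2 (0.95) rose. SPI1 and CEBPA, which act from early stages on, were not called, with log2 changes of -0.11 and 0.06. CEBPE, a factor of late granulocyte maturation, was not called either (0.23 ± 0.18), but rose by 2.55 ± 0.25 with MI-3454 against DMSO, and the effect was lower with gilteritinib by 2.33 ± 0.31 log2 units (edgeR interaction adjusted p = 0.000146). Among stem and progenitor genes only 3 of 14 were tested and all fell, led by ANGPT1, a ligand of the TEK receptor, at 0, 0.310 and 0.273 CPM with the combination against 27.5, 21.3 and 29.1 CPM with gilteritinib. At that level in the combination, ANGPT1 could pass the filter on low counts only through other groups. The 11 that did not pass include CD34, PROM1, CRHBP, BAALC and ERG, at 0 counts in both groups, so the 3 do not stand for the list. EGFL7 lost its call without combination 2 or gilteritinib 1 (edgeR adjusted p = 0.0648 and 0.122).

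On the cell surface, 8 of 15 markers of myeloid leukaemia rose and 3 fell. CLEC12A, a myeloid lectin receptor and a candidate for antibody therapy, measured 22.6, 24.7 and 28.8 CPM with the combination, against 2.31, 1.57 and 2.62 CPM with gilteritinib. ANPEP (CD13) rose by 2.40 ± 0.17 and CD93 by 1.59 ± 0.08, while CD44, an adhesion receptor, fell by 1.13 ± 0.09 to 193 ± 17.7 CPM, against 437 ± 25.6 CPM with gilteritinib. Of 16 cytokine and chemokine receptor genes, 12 rose and none fell, with a median log2 change of 0.57, although 1 was called lower without combination 1. CXCR4, the receptor that keeps leukaemia cells in the marrow, measured 206, 198 and 201 CPM with the combination, against 53.2, 49.7 and 58.8 CPM with gilteritinib, and its rise was larger than without gilteritinib by 1.08 ± 0.12 log2 units (edgeR interaction adjusted p = 3.67e-05). IL10RA (1.53), TNFRSF1B (1.18) and CSF3R (1.03) rose as well.

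The ligands moved unlike the receptors: 10 of 14 chemokine and cytokine genes fell and 3 rose, with a median log2 change of -1.13. CCL5 measured 67.1, 62.5 and 47.0 CPM with the combination, against 504, 578 and 576 CPM with gilteritinib. CCL3 measured 1.12, 1.34 and 0.547 CPM with the combination, against 18.7, 22.2 and 19.1 CPM with gilteritinib. Both are chemokines of monocytes and T cells. CXCL8 (2.52 ± 0.15) and IL1B (2.80 ± 0.38), an attractant of neutrophils and a cytokine of activated monocytes, rose, as did IL1RN by 0.61.

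Genes of antigen presentation on class I molecules rose in 10 of 14 cases and fell in 1, with a median log2 change of 0.60. NLRC5, the transactivator of class I genes, measured 299.9, 304 and 322 CPM with the combination, against 70.2, 70.9 and 65.1 CPM with gilteritinib. HLA-B (1.10 ± 0.10) and B2M (0.79 ± 0.09) rose with it, with the caution that HLA genes resemble each other. Class II genes differed between the conditions. CIITA, their transactivator, measured 4.46, 5.68 and 7.11 CPM with the combination, against 1.97, 2.05 and 0.981 CPM with gilteritinib, a rise of 1.79 ± 0.28, whereas MI-3454 alone lowered it by 1.57 ± 0.21, and the difference of 3.36 ± 0.36 passed the test (edgeR interaction adjusted p = 1.51e-05). Of 6 class II genes tested, 2 rose and 1 fell with the combination against gilteritinib, and none rose and 5 fell with MI-3454 against DMSO. HLA-DRA was near 0 with the combination (0.446 ± 0.0599 CPM) and with gilteritinib (0.239 ± 0.279 CPM), against 1.18 ± 0.325 CPM with MI-3454 and 29.1 ± 2.71 CPM with DMSO.

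Of 23 interferon-stimulated genes 9 rose (39.1%) and 8 fell (34.8%), with a median log2 change of 0.08. These shares are near the 30.1% and 30.3% of all genes, and the counts were 5 and 5 without gilteritinib 3. OAS1 (1.63 ± 0.20), MX2 (1.37 ± 0.13), IFI6 (1.13) and STAT2 (1.07) rose. IFIT1 fell by 3.16 ± 0.54 and USP18 by 2.24 ± 0.35, at 0.189 ± 0.166 and 0.492 ± 0.070 CPM with the combination, and OAS2 had 1 count with the combination and 23 with gilteritinib.

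Lipid synthesis genes fell with the combination and mostly did not pass the test under MI-3454 alone. Of 24 cholesterol synthesis genes 22 fell and none rose, with a median log2 change of -0.95, and of 15 fatty acid synthesis genes 14 fell and none rose, with a median of -1.35. For MI-3454 against DMSO the corresponding counts were 3 lower and none higher, and 3 lower and 1 higher, with medians of -0.17 and -0.12. Of all genes tested, 8.95% were called lower in that comparison, against 30.3% for the combination against gilteritinib. Few calls under MI-3454 alone are thus not particular to these lists. Leaving out 1 library at a time gave 1 to 6 cholesterol genes lower, the lowest without DMSO 1 and the highest without DMSO 2, with 5 without MI-3454 replicate 3, and 1 to 3 fatty acid genes lower, the lowest without DMSO 1 or MI-3454 replicate 2. Without the libraries highest in RN7SL1 these counts were 7 and 4. SCD (ENSG00000099194.6, chromosome 10, 100347124 to 100364834), the desaturase that makes oleate, measured 255, 225 and 183 CPM with the combination, against 1567, 1451 and 1564 CPM with gilteritinib. The cells with MI-3454 alone, at 1998 ± 149 CPM, and with DMSO, at 2074 ± 251 CPM (SD, n = 3 each), did not differ in the test (-0.0011 ± 0.13; edgeR adjusted p = 0.997). The difference between the effects, -2.75 ± 0.17, passed the test (edgeR interaction adjusted p = 9.26e-08).

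FADS2, another desaturase gene, measured 52.9, 46.2 and 33.2 CPM with the combination, against 266, 295 and 258 CPM with gilteritinib. SREBF1, which encodes the main activator of fatty acid synthesis genes, fell by 1.87 ± 0.13 and FASN by 1.79 ± 0.12. In the cholesterol pathway HMGCS1, an early enzyme, measured 42.6, 40.7 and 45.1 CPM with the combination, against 212, 176 and 210 CPM with gilteritinib, a log2 change of -2.18 ± 0.09 (edgeR adjusted p = 1.49e-10). INSIG1, which retains the SREBP complex when sterols are plentiful, fell by 1.74 ± 0.09. The effect of MI-3454 was called lower with gilteritinib than without it for 15 of the 24 cholesterol genes and 10 of the 15 fatty acid genes. Over the other settings it was called lower for 12 to 21 and 9 to 13 of them. Of all genes tested, 8.74% had an effect called lower. A sterol response element written TCACNCCAC was found in 1 of 18 cholesterol gene promoters, that of SREBF2, against 1.09% of promoters of tested genes.

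Genes of amino acid supply fell as well. Of 23 genes of the ATF4 program and of amino acid synthesis, 20 fell and 1, CEBPB, rose, with a median log2 change of -1.28. ATF4, the transcription factor of the amino acid response, fell to 241, 223 and 196 CPM with the combination, against 396, 411 and 394 CPM with gilteritinib. CHAC1, a glutathione-degrading enzyme and a sensitive ATF4 target, measured 0.515, 1.44 and 0.547 CPM with the combination, against 9.07, 11.7 and 11.8 CPM with gilteritinib, and 122 ± 22.5 CPM with DMSO. TRIB3, a pseudokinase induced by ATF4, measured 22.2, 17.9 and 16.9 CPM with the combination, against 118, 115 and 108 CPM with gilteritinib. PHGDH, the entry enzyme of serine synthesis, fell by 2.28 ± 0.11 (edgeR adjusted p = 4.97e-10), and MI-3454 alone lowered it by 0.57 ± 0.15. ASNS, asparagine synthetase, averaged 1.03 ± 0.417 CPM with the combination and 0.815 ± 0.247 CPM with gilteritinib (SD, n = 3 each), and its log2 change of 0.35 ± 0.44 was not called.

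The amino acid response element, written TGATGNAAN, was found in 3 of 19 promoters of this list (15.8%), those of CHAC1, ATF3 and ASNS, against 1.71% of promoters of tested genes. The first of these and that of ATF3, a further stress factor gene that fell by 1.10 ± 0.19, are shown for members that fell and hold the word, again from RefSeq on GRCh38.p14 and with the match in capitals. In CHAC1 the word lies on the other strand, so the capitals hold its reverse complement.
CHAC1, chr15:40953221-40953520, plus strand: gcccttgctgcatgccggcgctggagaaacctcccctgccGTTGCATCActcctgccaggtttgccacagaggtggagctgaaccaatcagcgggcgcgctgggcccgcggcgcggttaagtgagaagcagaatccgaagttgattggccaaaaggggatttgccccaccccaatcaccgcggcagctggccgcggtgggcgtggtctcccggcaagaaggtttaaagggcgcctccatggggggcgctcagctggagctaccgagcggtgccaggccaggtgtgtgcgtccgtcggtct
ATF3, chr1:212565157-212565456, plus strand: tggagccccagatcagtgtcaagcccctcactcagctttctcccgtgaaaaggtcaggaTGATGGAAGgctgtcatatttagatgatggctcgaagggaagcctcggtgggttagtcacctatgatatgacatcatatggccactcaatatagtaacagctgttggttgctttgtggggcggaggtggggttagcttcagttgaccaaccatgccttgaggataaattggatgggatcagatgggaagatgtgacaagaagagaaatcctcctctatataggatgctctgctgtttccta

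Amino acid transporter genes were divided, with 3 of 13 higher (23.1%) and 6 lower (46.2%), against 30.1% and 30.3% of all genes. SLC7A11, the cystine importer that supplies glutathione synthesis, measured 69.6, 76.2 and 84.6 CPM with the combination, against 19.0, 14.7 and 17.01 CPM with gilteritinib. Its rise of 2.22 ± 0.11 (edgeR adjusted p = 6.89e-10) brought it near the 55.5 ± 13.8 CPM with MI-3454 and the 61.4 ± 15.8 CPM with DMSO (SD, n = 3 each). SLC7A5, the importer of large neutral amino acids, went the other way, at 91.3, 76.1 and 74.3 CPM with the combination against 303, 309 and 275 CPM with gilteritinib. Of 20 aminoacyl-tRNA synthetase genes 17 fell and none rose, with a median log2 change of -0.58, led by AARS1 at -1.45 ± 0.09. Of 18 nucleotide synthesis genes 16 fell and 1 rose, with a median of -0.60, led by PAICS of the purine pathway at -1.30 ± 0.10; the 1 that rose was not called without combination 2, combination 3 or gilteritinib 1. Of 25 genes of glycolysis and the pentose phosphate pathway 14 fell and 5 rose. LDHA measured 262, 245 and 222 CPM with the combination, against 721, 573 and 687 CPM with gilteritinib, and HK3, a hexokinase of mature myeloid cells, rose by 1.76 ± 0.15.

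Genes of oxidative phosphorylation depended on where they are encoded and on the libraries. Of 25 nuclear genes 9 fell (36.0%) and 2 rose (8.0%), with a median log2 change of -0.13, while 4 rose with library totals. The share that fell was near the 34.8% of protein-coding genes that fell. All 13 mitochondrially encoded genes fell, with a median of -2.72, but the size rests on gilteritinib 2. MT-ND2 measured 23.9, 17.03 and 17.1 CPM with the combination, against 66.7, 1322 and 76.7 CPM with gilteritinib. Without gilteritinib 2 its log2 change was -1.82 ± 0.12 in place of -4.62 ± 0.92, the median of the 13 was -1.12, and 12 of them fell. DESeq2 called 7 of the 13 and gave no adjusted p for the other 6.

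FOXO1, a transcription factor that AKT holds out of the nucleus, measured 13.7, 12.5 and 15.7 CPM with the combination, against 1.54, 1.20 and 1.85 CPM with gilteritinib. SESN3, a stress gene that FOXO factors induce, measured 120, 125 and 131 CPM with the combination, against 16.3, 12.2 and 17.1 CPM with gilteritinib. In the whole list of FOXO factors and targets 9 of 20 rose and 2 fell, a median log2 change of 0.18, so that these genes are its extremes. Of 27 lysosome and autophagy genes 19 rose and 1 fell, with a median of 0.45, and the call of the 1 that fell was lost without combination 2, combination 3, gilteritinib 1 or gilteritinib 2. CTSD, a lysosomal protease, measured 215, 169 and 151 CPM with the combination, against 71.0, 71.9 and 70.2 CPM with gilteritinib. TFEB, the transcription factor of lysosome genes, rose by 1.10 ± 0.09 but fell by 0.48 ± 0.15 with MI-3454 alone, and the difference of 1.57 ± 0.17 passed the test (edgeR interaction adjusted p = 2.03e-05).

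Of 19 heat shock and chaperone genes 16 fell and none rose, with a median log2 change of -0.73, although 1 rose with library totals or without gilteritinib 1. HSPB1, a small heat shock protein, measured 56.5, 46.3 and 40.3 CPM with the combination, against 221, 328 and 218 CPM with gilteritinib. HSP90AA1 fell by 1.01 ± 0.09. Among polycomb and DNA methylation genes 5 of 19 rose and 11 fell. EZH2, the histone methyltransferase of cycling cells, fell by 0.42, and its paralogue EZH1 rose by 0.84 ± 0.09. TET2, a dioxygenase of DNA demethylation, rose by 0.99 ± 0.08 and TET1, which MLL fusions are known to sustain, fell by 0.88 ± 0.20.

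Markers of other cell types moved in both directions, and most had low levels. The T and NK cell markers were the exception, with the summed 68.9 to 96.5 CPM with the combination and 45.6 to 55.8 CPM with gilteritinib given above. Among them NKG7 (0.89 ± 0.13) and NCAM1 (0.57 ± 0.12) rose, and CD3D fell to 0.526 ± 0.222 CPM with the combination, against 2.61 ± 0.591 CPM with gilteritinib. KRT18 fell by 1.59 ± 0.17 and COL1A1 by 1.81 ± 0.34, and the summed fibroblast and endothelial markers were 1.14 to 2.92 CPM with the combination and 5.82 to 6.86 CPM with gilteritinib. The summed epithelial markers were 5.06 to 7.02 CPM with the combination and 14.5 to 14.9 CPM with gilteritinib, and KRT19 and CDH1 were at 0 counts in both groups.

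The largest changes were named by a rule: protein-coding genes with at least 5 CPM in the higher group, no overlap and a called change. The 10 largest rises were CD14, ANKRD22, S100A8, OLR1, NAV3, SERPINB2, ADAMDEC1, PADI4, GPR141 and S100A9. NAV3, a microtubule-associated protein gene, measured 189.6, 177 and 173 CPM with the combination, against 2.22, 1.45 and 1.64 CPM with gilteritinib, a log2 change of 6.67 ± 0.13 (edgeR adjusted p = 1.77e-13). OLR1, a scavenger receptor for oxidised lipoprotein, had 365 counts with the combination and 3 with gilteritinib, a ratio of 124 (interval 42.0 to 603). SERPINB2, a plasminogen activator inhibitor of monocytes, had 215 counts with the combination and 3 with gilteritinib, a ratio of 72.9 (interval 24.6 to 357). The 10 largest falls were XIRP1, CD276, PKDCC, ADAMTS7, DYNC1I1, ANGPT1, ADM2, DUSP8, JCAD and CSRP3. No read of 4 of them was counted with the combination. XIRP1, an actin-binding protein gene of striated muscle, had 0 counts with the combination, against 15.5, 15.2 and 11.9 CPM with gilteritinib, and was at least 136-fold lower when the combination group is set to a floor of 3 counts. CD276, the immune checkpoint ligand B7-H3, had 0 counts with the combination and 194 with gilteritinib, at least 63.5-fold lower. DYNC1I1, a dynein intermediate chain gene, had 2 counts with the combination and 492 with gilteritinib, a ratio of 242 (interval 66.5 to 2001).

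The same agent was also given without gilteritinib, in libraries that the comparison above does not use. With MI-3454 against DMSO 2658 genes changed (19.0%), 1407 higher (10.1%) and 1251 lower (8.95%), of which 652 rose (4.67%) and 520 fell (3.72%) at least 2-fold. Of the 4210 genes that rose with the combination against gilteritinib, 1149 also rose there, which is 27.3% of the first list and 81.7% of the second. Of the 4229 that fell, 997 also fell there, 23.6% of the first and 79.7% of the second. Only 47 and 48 genes were called in opposite directions. Across the 13972 genes the log2 changes of the comparisons had a Pearson correlation of 0.723 and a Spearman correlation of 0.642; genes are not independent replicates, and no p is given. The median absolute log2 change was 0.44 with gilteritinib and 0.25 without it.

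The interaction term, which tests whether the effect of MI-3454 differs with and without gilteritinib, was called for 2136 genes (15.3%), 915 higher (6.55%) and 1221 lower (8.74%), of which 453 (3.24%) and 408 (2.92%) differed at least 2-fold. These counts were 590 and 715 without combination 3, and the lower one was 740 without combination 2. With library totals the split turned to 1120 higher and 808 lower. Of 3014 genes that rose with gilteritinib and were not called without it, 593 had an effect called larger with gilteritinib, and of 3184 such genes that fell, 763 did. Among genes called in both, the effect was larger with gilteritinib for 142 and smaller for 67 of the 1149 that rose, and larger for 203 and smaller for 26 of the 997 that fell. MEIS1 (-1.54 ± 0.21), MEF2C (-1.52 ± 0.14), MYC (-0.79 ± 0.16) and BCL2 (-0.50 ± 0.13) fell further with gilteritinib than without it (edgeR interaction adjusted p = 0.000173, 4.00e-06, 0.00458 and 0.0169). For HOXA9 the difference of -0.24 ± 0.13 did not pass the test (edgeR interaction adjusted p = 0.223).

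**Figure D5:**
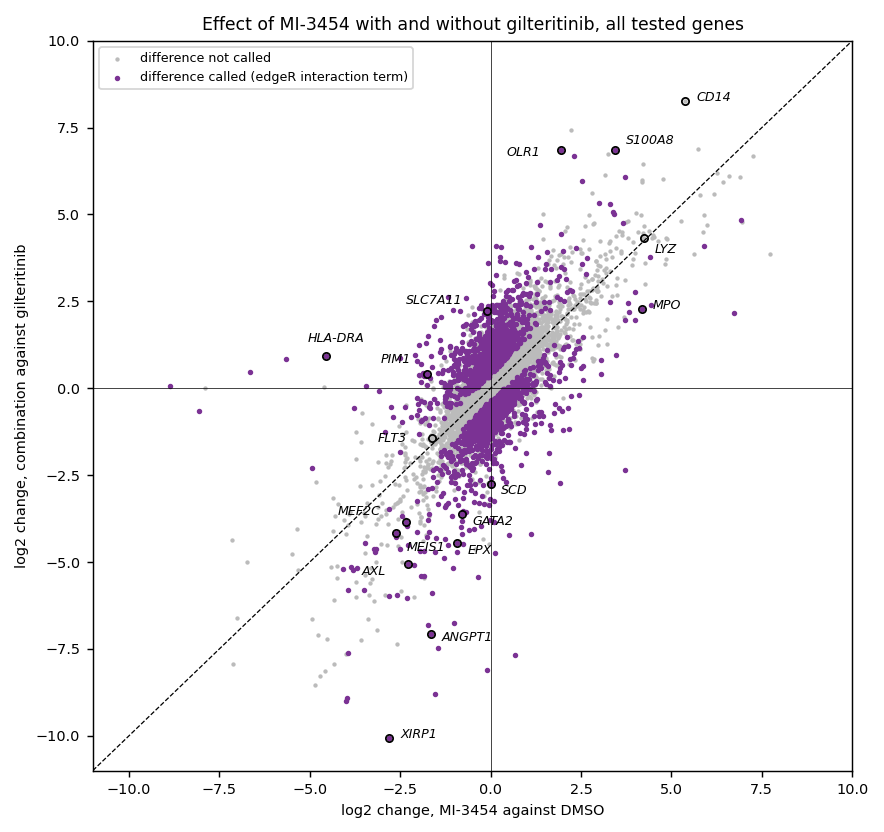
Log2 change of each of 13972 tested genes for the combination against gilteritinib (vertical axis) and for MI-3454 against DMSO (horizontal axis), with genes whose difference was called by the edgeR interaction term in purple and the dashed line at equal effects. LYZ (4.31 and 4.24) lies near the line, SCD (-2.74 and -0.0011) and SLC7A11 (2.22 and -0.09) lie near the vertical axis, and PIM1 (0.42 and -1.76) lies in the quadrant of opposite signs.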

How the data were processed

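RNA was measured in MOLM-13 cells in 4 groups of 3 libraries, grouped by their titles. The deposited values are raw read counts per gene, which the authors made per library; among tools, HTSeq 0.11.2, STAR 2.7.1a, cutadapt 2.1 and DESeq2 are listed in the submitters' processing notes, with GRCh38 as the build and no role or order. Neither the annotation release nor whether counting used strand is stated there, so overlapping and antisense genes, and genes with near-identical copies (HLA, tryptase, CCL4, histone and ribosomal protein genes), are uncertain.

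Each file held 60668 genes and 5 summary counts, which were left out of library sizes and tests. Of the gene IDs, 60295 matched a symbol and 58516 matched GENCODE 29; 1266 entries share a symbol. Of 30849 genes with at least 1 count, 13972 passed edgeR's filterByExpr. Counts were scaled by TMM and tested with edgeR 4.0.16 (quasi-likelihood, R 4.3.3, limma 3.58.1), with Benjamini-Hochberg adjustment over all genes tested and a threshold of 0.05. The combination and gilteritinib libraries were fitted alone, as were the MI-3454 and DMSO libraries. The difference between the 2 effects was an interaction term in a fit of all libraries. The scripts were tested on simulated data. Counting error is the only error that the intervals and floors cover.

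The genes and lists were chosen with earlier results of these data known. Named genes are fixed anchor genes, the 10 largest changes in each direction among genes with at least 5 CPM and no overlap, up to 5 called members per list, and 5 genes per direction for the difference; other members named with values were chosen after these were seen. Alternatives were DESeq2 (1.42.0) and its size factors, library totals, no filter, a filter of 10 counts in 3 libraries, a replicate block, all libraries in 1 fit, each library left out, and the libraries highest in RN7SL1 left out.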

Additional observations from a re-analysis of the deposited data

Results flagged for a closer look

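For 117 of the 231 genes named by rule, the effect of MI-3454 differed with and without gilteritinib in edgeR's interaction test, against 15.3% of all genes tested. Many of the 231 were chosen for a large or called change, and 10 for this difference itself, so that the count partly follows from the choice. The log2 effect with minus the effect without gilteritinib was -1.54 for MEIS1, -1.52 for MEF2C, -0.50 for BCL2, -0.79 for MYC, 2.17 for PIM1 and -1.91 for MPO.

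The largest positive differences were 8.89 for CD80, 7.09 for RHBDL3, 6.51 for IL2RA, 5.48 for HLA-DRA and 4.91 for OLR1. The first 4 of these genes were near 0 in both groups with gilteritinib, with 2 counts in the combination and 2 in the gilteritinib libraries for CD80, 4 and 3 for RHBDL3, 2 and 1 for IL2RA, and 13 and 7 for HLA-DRA. Without gilteritinib, IL2RA averaged 1.07 CPM with MI-3454 and 56.7 CPM with DMSO, and CD80 averaged 0 CPM with MI-3454 and 6.09 CPM with DMSO. With counts this low in 3 of the 4 groups, the fitted differences of CD80 and RHBDL3 also depend on the prior count and are no bounds.

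The largest negative differences were -7.30 for ADAMTS7, -7.30 for XIRP1, -6.04 for INHBE, -5.77 for DUSP8 and -5.42 for ANGPT1. ADAMTS7, XIRP1 and INHBE had 0 counts in the combination libraries, so their fitted differences depend on the prior count and are no bounds.

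A signal outside the gene counts was the share of uniquely placed reads outside annotated exons, which averaged 32.6% ± 4.02 in the combination libraries and 16.995% ± 1.24 in the gilteritinib libraries (SD, n = 3 each).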

How the results depend on the processing

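Of 227 named genes called for the combination against gilteritinib, 219 kept their call in every alternative run, 8 lost it in at least 1, and none reversed. The 8 were TASP1, CCNT1, EGFL7, RPL11, RPLP1, RPL38, CD33 and ITGA2B. For MI-3454 against DMSO 37 of 151 calls were lost in some setting, and for the difference between the effects 27 of 117. The replicate numbers gave no sign of pairing. Deviations from the group mean in same-numbered libraries had correlations of -0.13, -0.05 and 0.09 between combination and gilteritinib. Between MI-3454 and DMSO the correlations were 0.20, -0.31 and -0.39. With means of 3 libraries, these values cannot settle whether the numbers pair the cultures. A replicate block gave 4129 genes higher and 4075 lower for the combination, 900 higher and 778 lower for MI-3454 against DMSO, and 634 genes lower in both. With library totals 808 differences were lower. Without the libraries highest in RN7SL1, 2019 genes were lower for MI-3454 against DMSO, 2193 differences were lower, and 1611 genes were lower in both. Leaving out 1 library at a time gave 935 to 1541 genes higher for MI-3454 against DMSO, the lowest without DMSO 1, 590 to 1167 differences higher and 715 to 1636 lower. The cause was not tested. Depth limits genes of a few counts, whose folds have wide intervals.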
